A study of Mus musculus with 8 samples.

Results

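The mitochondrial carrier family (Slc25) was followed in brown adipose tissue (BAT), the thermogenic fat depot, of WT and Cd36KO mice. Its members were chosen by gene symbol and not by expression. Every row of the count table whose mouse symbol starts with Slc25a was taken, together with Ucp2 and Ucp3, which gave 49 genes of 31053, all of them protein-coding. Ucp1, the uncoupling protein that marks brown fat, was left out. At least 1 count was found for 47 of the 49 genes, while Slc25a41 and Slc25a54 had none in any library, and 36 genes had enough counts for an adjusted p.

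Mitochondrial carriers are small transport proteins, most of which sit in the inner mitochondrial membrane and exchange metabolites, nucleotides, cofactors or ions between the matrix and the cytosol. They are made on cytosolic ribosomes and reach the inner membrane mainly through the TIM22 translocase. In brown fat they feed the respiratory chain with fatty acids and other fuels, and the uncoupling proteins, which belong to the same family, let protons back across the membrane.

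The libraries came from 4 WT and 4 Cd36KO mice of strain C57BL6/J, labelled as 8 weeks old, and were sequenced as bulk mRNA. CD36 is a scavenger receptor for lipids and lipoproteins. The labels give the mutant genotype only as Cd36KO. The study describes mice with floxed Cd36 and Csf1r-driven Cre, which acts in macrophages and other myeloid cells, and mice with a germline deletion. It attributes its BAT transcriptome to the floxed mice, but the labels do not say which line gave these libraries. For 1 Cd36KO library the column of counts has no replicate number, and it is called the unnumbered Cd36KO library here. In bulk tissue, fewer cells of a type and less RNA per cell cannot be told apart.

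Total counts ranged from 2679785 to 4097953 per library. Cd36 itself was still counted in every Cd36KO library, with 1926 to 2384 normalized counts against 2412 to 3505 in WT (counts divided by a size factor for library depth; log2 fold change -0.48, SE 0.16, DESeq2 adjusted p = 0.0602). The labels name the cell type as stromal vascular fraction, yet the 12 brown adipocyte markers summed to between 18058 and 40928 normalized counts in the 8 libraries, so adipocyte RNA was abundant. That sum was 18058 to 23601 in WT and 32032 to 40928 in Cd36KO, without overlap, and 4 of the 12 markers passed the test, all higher, although 0 passed in edgeR and 0 in limma (7 at an unadjusted p under 0.05 in each). The 20 skeletal muscle markers summed to 1371 to 83837 in WT and 489 to 10629 in Cd36KO, with the highest value in WT replicate 1, and all 20 had a negative log2 fold change, although 0 passed in DESeq2 and 0 in edgeR (11 and 17 at an unadjusted p under 0.05). The 10 white adipocyte markers summed to 837 in WT replicate 1, 4537 to 5517 in the other WT libraries and 728 to 1167 in Cd36KO, and 6 of the 8 with an adjusted p were called lower in DESeq2, while edgeR called 4 and limma 1. The 8 fibroblast and progenitor markers summed to 2126 to 2552 in WT and 1690.1 to 1924 in Cd36KO, again without overlap, and 1 of them, Dpt, was called lower (log2 fold change -1.48, DESeq2 adjusted p = 8.08e-05). Sums of the macrophage and endothelial markers overlapped. The methods give a later age at sacrifice for the floxed mice than the labels, with which a figure legend of the study agrees in age, and they state that males were used, whereas Xist had 772 to 1588 counts in every library and Y-linked genes showed 0 counts in 7 libraries and 3 in WT replicate 1.

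The whole family took 0.275% to 0.397% of the counts of a library, lowest in WT replicate 3 and highest in the unnumbered Cd36KO library. Slc25a51, the importer of NAD, held 17.5% of the family's normalized counts, Slc25a4, the ADP/ATP carrier of heart and muscle (ANT1), 14.7%, and Slc25a39, an importer of glutathione, 9.78%. Per kilobase of exons and over all 8 libraries, Slc25a4 stood first with 719 normalized counts per kb in WT and 612 in Cd36KO, followed by Slc25a39 (290 and 465) and Slc25a51 (290.3 and 386). In WT alone the citrate carrier Slc25a1, at 308 per kb, lay above the latter pair by less than its SD. The order of levels per length assumes that reads cover a transcript evenly, and the kit's read position along transcripts was not given in the sources used here. At the other end, 7 members, among them Slc25a31, the germ-cell ADP/ATP carrier, Slc25a18, a glutamate carrier, and Slc25a43, had at most 3 counts in any library, and 20 of the 49 averaged at least 100 normalized counts.

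**Figure D1:**
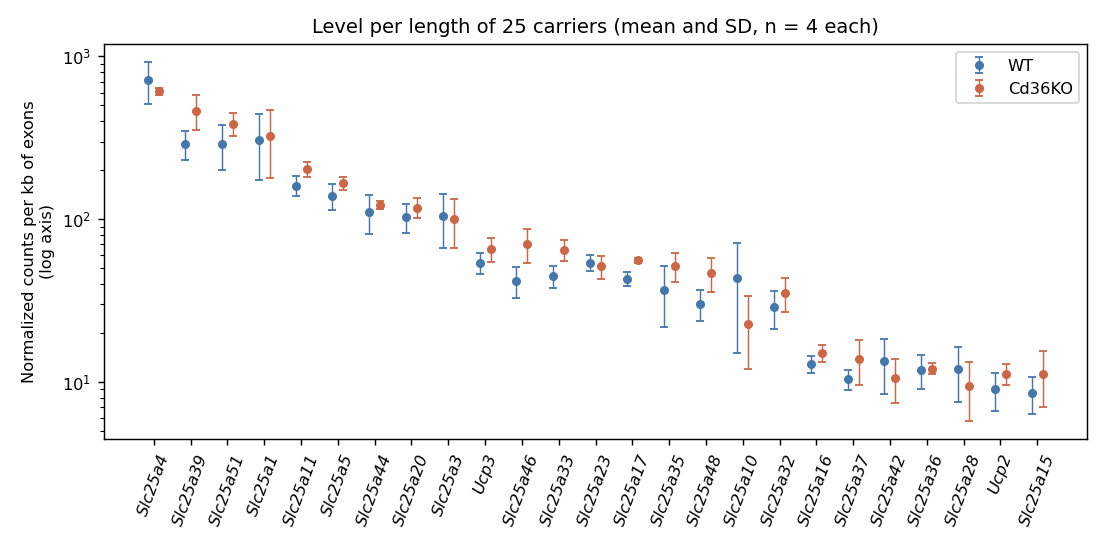
Normalized counts per kilobase of exons of 25 carriers, on a log axis, as mean and SD of 4 WT (blue) and 4 Cd36KO (orange) libraries. Slc25a4 is highest, and the SD bars of the groups are apart for Slc25a39, Slc25a46, Slc25a33 and Slc25a17.

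Against this range of levels, few carriers differed between genotypes, and those that passed the test were all higher in Cd36KO. Among them were Slc25a40, a relative of Slc25a39 linked to glutathione import, and Slc25a46, an outer membrane protein that acts in mitochondrial dynamics. With DESeq2 and Benjamini-Hochberg adjustment over all genes, 3 of the 36 members tested had an adjusted p under 0.05, all higher and 0 lower, while 33 did not pass. Over the whole table, 284 of 9617 genes passed (2.95%), 1.42% higher and 1.53% lower. At an unadjusted p under 0.05 stood 8 of the 36 members, against 15.6% of all genes. The median log2 fold change of the 36 members was 0.16, against -0.01 for all genes tested, and 21 of the 36 were above 0, against 49.2% of all genes. In 6 members all 4 Cd36KO libraries lay above all 4 WT libraries (background 4.84%), and in 0 members all lay below (background 3.93%), where 8.77% of all genes had groups that did not overlap in either direction. The calls depended on the tool. The edgeR quasi-likelihood test called 0 of 38 members (7 at an unadjusted p under 0.05, against 16.1% of all genes), where it called 0.143%, and limma on the deposited log2 values called 0 of 47 (9 unadjusted, against 11.5%), where it called 0.0461%.

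**Figure D2:**
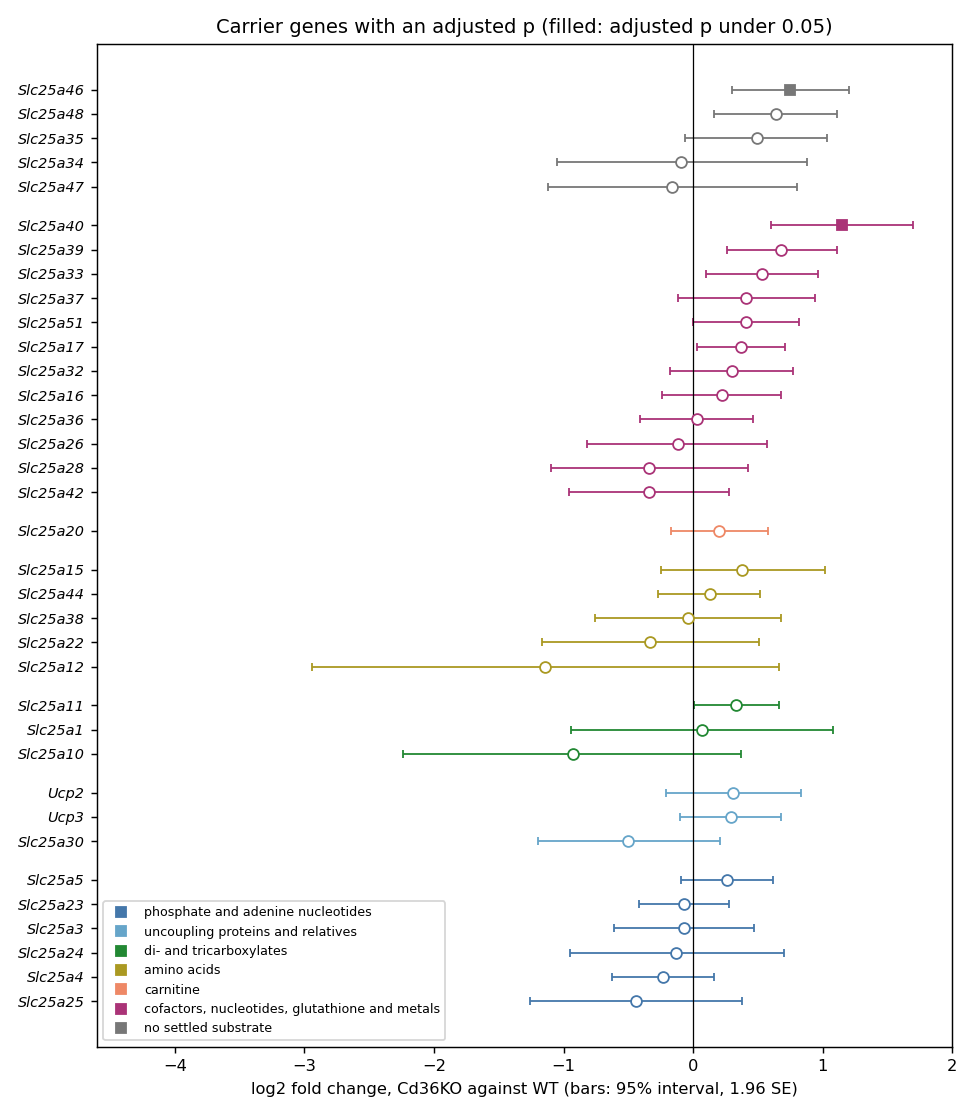
Log2 fold change of Cd36KO against WT for carriers with an adjusted p, grouped by what they carry, with bars for the 95% interval. Filled squares mark an adjusted p under 0.05 (Slc25a40 and Slc25a46), and Slc25a12 and Slc25a10 have the widest bars.

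Carriers of cofactors, nucleotides, glutathione and metals all had an adjusted p, 13 in number. Of these, 10 had a log2 fold change above 0 (49.2% of all genes), 2 passed as higher in DESeq2 (background 1.42%) and 0 in edgeR (5 at an unadjusted p under 0.05), and in 5 all Cd36KO libraries lay above the WT libraries (background 4.84%). Their median log2 fold change was 0.37, and no test compared the groups of substrates with each other.

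Slc25a40 (chr5:8422850-8454797, plus strand, GRCm38) had the largest rise among the carriers with an adjusted p. Its normalized counts were 47.8, 40.8, 42.3 and 46.5 in WT replicates 1 to 4, and 147 in the unnumbered Cd36KO library and 95.5, 70.6 and 83.1 in Cd36KO replicates 2 to 4. The WT libraries lay close together, the Cd36KO libraries were spread, and the groups did not overlap. The mean was 44.4 ± 3.35 in WT and 99.1 ± 33.6 in Cd36KO (n = 4 each, SD), a 2.23-fold rise (log2 fold change 1.15, SE 0.28, DESeq2 adjusted p = 0.00592). Leaving out the unnumbered Cd36KO library gave a log2 fold change of 0.90 (DESeq2 adjusted p = 0.0774), and edgeR gave 0.0895 on all libraries. It was a weakly expressed carrier, with 577 counts over all libraries.

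Slc25a39 (chr11:102402985-102407946, minus strand), which imports glutathione into the matrix and shares 71.6% of 933 aligned coding bases with Slc25a40, was expressed far more. Normalized counts were 563, 919, 892 and 823 in WT and 1525 (unnumbered), 932, 1120 and 1551 in Cd36KO. All Cd36KO libraries lay above the WT libraries, although Cd36KO replicate 2 exceeded WT replicate 2 only narrowly. The mean went from 799 ± 162 to 1282 ± 306 (n = 4 each, SD). The log2 fold change was 0.68 (SE 0.22) with a DESeq2 adjusted p of 0.0514, just past the threshold. Leaving out 1 library, it passed in 2 of 8 fits, without WT replicate 4 (adjusted p = 0.0374) and without Cd36KO replicate 2 (0.0103), and in the 6 others the adjusted p ran from 0.0655 to 0.238, highest without the unnumbered Cd36KO library. The adjusted p was 0.159 in edgeR and 0.23 in limma. Per length, Slc25a40 made up 1.44% to 2.72% of the pair in WT and 1.73% to 3.26% in Cd36KO, so the groups overlapped in this share. Of 10 genes for the supply and use of glutathione, 0 passed in DESeq2 (1 at an unadjusted p under 0.05), 0 in edgeR (1 unadjusted) and 0 in limma (2 unadjusted), and 5 were above 0 and 5 below. The lowest p was that of Glrx5, a mitochondrial glutaredoxin, with 640.1 ± 158 in WT and 876 ± 129.8 in Cd36KO (n = 4 each, SD; DESeq2 adjusted p = 0.208), and the largest difference that of Gsr, glutathione reductase, with 17.4 ± 5.02 and 7.98 ± 6.82 (log2 fold change -1.08, adjusted p = 0.377).

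The DNA just upstream of a transcript start is shown for the 4 carriers with groups that did not overlap and a RefSeq promoter (GRCm38.p6). Slc25a46 is named only. The Slc25a39 stretch lies inside the gene span given above, so it precedes a RefSeq start and not the 5′ end of the gene. Bases run 5′ to 3′ on the strand of the gene, bases that fall in an exon of any annotated transcript are left out, and capitals mark matches to the motifs GGGCGG (SP1 or KLF factors, reading CCGCCC on the opposite strand) and CCGGAAG (GABPA or another ETS factor).
Slc25a40, chr5:8422717-8422837, plus strand, next to the divergent gene Dbf4: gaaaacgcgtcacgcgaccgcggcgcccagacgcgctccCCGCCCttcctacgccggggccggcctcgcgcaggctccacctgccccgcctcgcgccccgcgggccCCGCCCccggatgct
Slc25a39, chr11:102407545-102407767, minus strand: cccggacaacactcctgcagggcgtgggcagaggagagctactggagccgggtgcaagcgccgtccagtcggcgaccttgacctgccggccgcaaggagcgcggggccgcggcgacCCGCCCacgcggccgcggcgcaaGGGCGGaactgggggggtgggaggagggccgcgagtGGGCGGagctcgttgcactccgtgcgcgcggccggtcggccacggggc
Slc25a33, chr4:149774278-149774517, minus strand: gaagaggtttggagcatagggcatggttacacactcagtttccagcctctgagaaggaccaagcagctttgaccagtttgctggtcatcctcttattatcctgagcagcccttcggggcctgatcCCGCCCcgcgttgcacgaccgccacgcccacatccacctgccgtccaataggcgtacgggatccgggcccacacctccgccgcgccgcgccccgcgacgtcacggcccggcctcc
Slc25a17, chr15:81360813-81361015, minus strand: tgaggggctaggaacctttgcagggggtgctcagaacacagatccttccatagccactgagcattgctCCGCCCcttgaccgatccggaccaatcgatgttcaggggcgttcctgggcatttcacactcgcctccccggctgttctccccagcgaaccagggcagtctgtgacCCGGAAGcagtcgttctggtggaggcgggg
All 4 stretches hold at least 1 GGGCGG on either strand, with 2 in Slc25a40 and 3 in Slc25a39, and Slc25a17 alone holds CCGGAAG.

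Over the family, 38 of the 49 members had 48 promoter windows, among 32851 windows of all genes. Motifs were sought only in the 250 bases upstream of each transcript start. GGGCGG was found in 68.8% of the carrier windows and in 32.7% of all windows, counting both strands. CACGTG, the E-box of MYC, USF and TFE factors, was in 16.7% against 6.02%, and CCGGAAG in 12.5% against 6.91%. The NRF1 motif was in 4.17% against 3.74%, TGACGTCA of CREB or ATF in 4.17% against 1.55%, and TCACNCCAC of SREBP in 4.17% against 1.05%. Each share of 4.17% stands for only 2 of the 48 carrier windows. CCAATCA of NF-Y was in 10.4% against 7.23%, and TNAAGGTCA of ERR in 0% against 1.14%. Each motif was counted on its own, also where it overlapped another, and the shares describe letters in these windows.

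Slc25a46 (chr18:31556111-31609911, minus strand) has the fold of a carrier but lies in the outer membrane and takes part in fission and lipid exchange of mitochondria. Its values were 153, 253, 262 and 241 in WT and 500.3 (unnumbered), 278, 381 and 369.9 in Cd36KO, in normalized counts. WT replicate 1 was low and the unnumbered Cd36KO library high, and the lowest Cd36KO library, replicate 2, was near the highest WT library. The mean rose from 228 ± 50.1 to 382 ± 91.0 (n = 4 each, SD), 1.68-fold (log2 fold change 0.75, SE 0.23, DESeq2 adjusted p = 0.042). This call was less stable than that of Slc25a40, which held in 7 of the 8 fits that left out 1 library. Slc25a46 held in 2 of the 8, with adjusted p from 0.0726 to 0.242 in the 6 others, without WT replicates 1, 2 and 3, the unnumbered Cd36KO library and Cd36KO replicates 3 and 4. The Slc25a46 call was also lost with independent filtering off. It shares 383 exon bases with the opposite-strand gene B930094E09Rik, which had 95 counts in all.

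**Figure D3:**
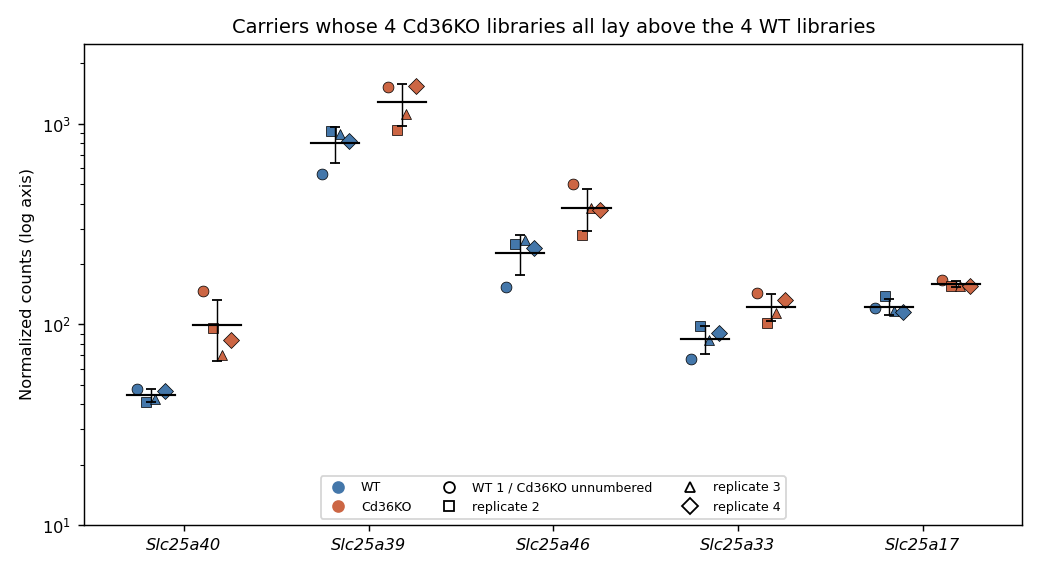
Normalized counts per library, on a log axis, of 5 carriers in which all 4 Cd36KO libraries (orange) lay above all 4 WT libraries (blue); lines and bars give mean and SD. The gap between groups is widest in Slc25a40 and narrowest in Slc25a39, and the unnumbered Cd36KO library (orange circles) is the highest in 4 of the 5.

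In the remaining members of this group with separate groups of libraries the differences were smaller. Slc25a33, a pyrimidine nucleotide carrier, had 66.8, 97.7, 83.5 and 91.0 normalized counts in WT and 143 (unnumbered), 101, 114 and 132 in Cd36KO. The highest WT library nearly reached the lowest Cd36KO library, and the log2 fold change of 0.53 (SE 0.22) did not pass (DESeq2 adjusted p = 0.18). Its relative Slc25a36, with 72.1% identity over 895 coding bases, measured 114 ± 26.8 in WT and 116 ± 9.25 in Cd36KO (n = 4 each, SD). Slc25a17, a carrier of cofactors in the peroxisome membrane, had 120.1, 139, 116 and 115 in WT and 167 (unnumbered), 156, 156 and 155 in Cd36KO. Cd36KO libraries were almost equal in it, and the log2 fold change was 0.37 (SE 0.18, DESeq2 adjusted p = 0.271).

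Slc25a51, the NAD importer with the most counts in the family, had 1363, 1338, 1368 and 2328 normalized counts in WT and 2626 (unnumbered), 1908, 1988 and 1977 in Cd36KO. The groups overlapped through WT replicate 4 alone, which exceeded 3 of the Cd36KO libraries. The log2 fold change was 0.41 (SE 0.21, DESeq2 adjusted p = 0.327), and without WT replicate 4 it was 0.65 with an adjusted p of 0.00232. Mitoferrin 1 (Slc25a37), the iron importer of erythroid cells, ranged from 52.4 to 74.1 in WT and from 58.7 to 119 in Cd36KO (log2 fold change 0.41, adjusted p = 0.491). Its highest value came from the unnumbered Cd36KO library, where the 7 erythroid markers summed to 16259, against 4615 to 8771 in the 7 other libraries, and the part of red cell RNA in the level was not tested. Mitoferrin 2 (Slc25a28) measured 44.9 ± 16.9 in WT and 35.5 ± 14.0 in Cd36KO (n = 4 each, SD; adjusted p = 0.753). The rest of the group, Slc25a16, Slc25a26, Slc25a32 and Slc25a42, had log2 fold changes between -0.34 and 0.30.

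Among the carriers of phosphate and adenine nucleotides, which supply ATP synthase and export its product, 0 of 6 with an adjusted p passed (0 at an unadjusted p under 0.05 in DESeq2 and in edgeR), and 5 of the 6 had a log2 fold change below 0. Slc25a4 had 2258, 1538, 1115 and 1854 normalized counts in WT and 1456 (unnumbered), 1518, 1429 and 1354 in Cd36KO. WT libraries ranged widely around the Cd36KO libraries, which lay within a narrow band, and the log2 fold change was -0.23 (SE 0.20, DESeq2 adjusted p = 0.636). With 1 library left out it ranged from -0.39 to -0.06. The 4 WT libraries had muscle marker sums of 83837, 15386, 1371 and 15483 in the same order, highest and lowest where Slc25a4 was highest and lowest. The Cd36KO libraries did not follow this, since their muscle sums ran from 489 to 10629 while Slc25a4 was highest in replicate 2, where the sum was 498. With the muscle score as a covariate the log2 fold change of Slc25a4 was 0.07.

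Slc25a5 (ANT2), the ADP/ATP carrier of most tissues, which shares 79.0% of 887 coding bases with Slc25a4, had 200.4, 227, 202 and 288 in WT and 257 (unnumbered), 257, 277 and 309 in Cd36KO. Only WT replicate 4 reached the Cd36KO range, and the difference did not pass (log2 fold change 0.26, SE 0.18, DESeq2 adjusted p = 0.51). Per length, Slc25a4 supplied 79.4% to 88.7% of the sum of both isoforms in WT and 75.4% to 80.5% in Cd36KO, highest in WT replicate 1. Slc25a31 had 1 count in all libraries together, in Cd36KO replicate 4, too few for its fold to be read. A copy of Slc25a5 with 98.3% identity, Gm5560, is in the annotation but has no row in the count table, so its share of reads is unknown. Slc25a3, the phosphate carrier, had 417, 478, 538 and 894 in WT and 797 (unnumbered), 409, 413 and 602 in Cd36KO. Here the groups overlapped fully (log2 fold change -0.07, SE 0.28, DESeq2 adjusted p = 0.946), and leaving out WT replicate 4, Cd36KO replicate 2 or Cd36KO replicate 3 turned the sign. The ATP-Mg/phosphate carriers Slc25a23, Slc25a24 and Slc25a25 had log2 fold changes of -0.07, -0.13 and -0.44 with adjusted p between 0.679 and 0.932.

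The uncoupling proteins other than Ucp1 and their relatives gave 0 calls among 3 with an adjusted p (0 at an unadjusted p under 0.05 in DESeq2 and in edgeR). Ucp3 (chr7:100472990-100486432, plus strand) had 184, 138, 161 and 192 normalized counts in WT and 212 (unnumbered), 243, 159 and 210.5 in Cd36KO. Cd36KO replicate 3 lay among the WT libraries and the other 3 above them (log2 fold change 0.29, SE 0.20, DESeq2 adjusted p = 0.52). Ucp2, which starts 6.9 kb behind Ucp3 on the same strand and shares 78.1% of 906 coding bases with it, had 65.0, 77.3, 70.6 and 39.6 in WT and 63.5 (unnumbered), 79.4, 77.7 and 91.5 in Cd36KO. Its groups overlapped, with the lowest value in WT replicate 4 and a log2 fold change of 0.31 (SE 0.27, adjusted p = 0.632). Slc25a30 measured 28.4 ± 7.10 in WT and 20.2 ± 2.07 in Cd36KO (n = 4 each, SD; adjusted p = 0.536), and Slc25a14 and Slc25a27 had no adjusted p.

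Of the di- and tricarboxylate carriers, 3 of 4 had an adjusted p and 0 passed (1 at an unadjusted p under 0.05 in DESeq2, 0 in edgeR). Slc25a1, the citrate carrier that exports acetyl units for fatty acid synthesis, had 261, 721, 742 and 941 normalized counts in WT and 1013 (unnumbered), 639, 289 and 853 in Cd36KO. WT replicate 1 and Cd36KO replicate 3 were low and the groups overlapped fully (log2 fold change 0.07, SE 0.51, DESeq2 adjusted p = 0.971), with a sign that turned without WT replicate 1, the unnumbered Cd36KO library or Cd36KO replicate 4. Slc25a10, the dicarboxylate carrier, had 28.0, 181, 129 and 262 in WT and 131 (unnumbered), 78.2, 56.3 and 48.8 in Cd36KO.

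For Slc25a10, WT replicate 1 was the lowest of all 8 libraries and the other WT libraries were high. The log2 fold change was -0.93 (SE 0.67, DESeq2 adjusted p = 0.53), and without WT replicate 1 it was -1.29 with an adjusted p of 0.00506. The white adipocyte marker sum was also lowest in WT replicate 1 among the WT libraries, at 837 against 4537, 5517 and 5006 in replicates 2 to 4. With the white score as a covariate the sign of Slc25a10 turned, to a log2 fold change of 2.0 (adjusted p = 0.00393), and Slc25a1 stood at 1.87 (0.000161). The marker sums of the groups overlap through WT replicate 1 alone, so this fit rests on that library. Slc25a11, the oxoglutarate/malate carrier of the malate-aspartate shuttle, was steadier, with 384, 298, 305 and 382 in WT and 466 (unnumbered), 376, 471 and 412 in Cd36KO. Cd36KO replicate 2 fell below 2 of the WT libraries, and the log2 fold change was 0.33 (SE 0.16, DESeq2 adjusted p = 0.299).

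**Figure D4:**
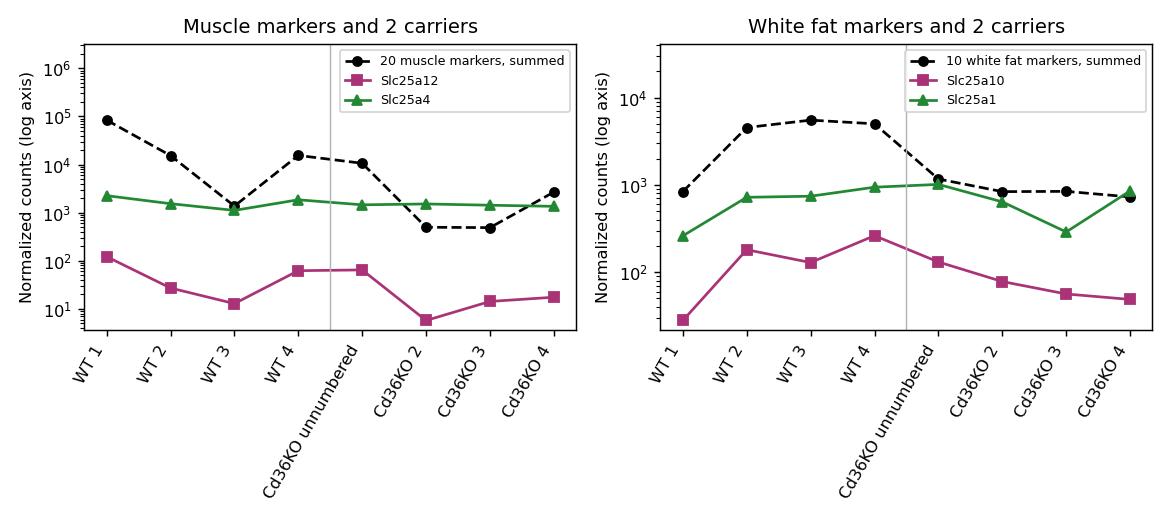
Normalized counts per library, on a log axis, of the summed muscle markers with Slc25a12 and Slc25a4 (left) and of the summed white fat markers with Slc25a10 and Slc25a1 (right); the grey line divides WT from Cd36KO. WT replicate 1 has the highest muscle sum, 83837, with the highest Slc25a12 and Slc25a4, and the lowest Slc25a10 and Slc25a1.

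Amino acid carriers gave 0 calls among 5 with an adjusted p (0 at an unadjusted p under 0.05 in DESeq2 and in edgeR). Slc25a12 (aralar), the aspartate/glutamate carrier of muscle and brain, had 122, 27.2, 12.9 and 62.3 normalized counts in WT and 64.6 (unnumbered), 5.75, 14.3 and 17.5 in Cd36KO. It had the widest spread within groups of all tested members, an SD of 1.36 on the log2 scale where the median member had 0.33. Its highest values came from WT replicate 1, the unnumbered Cd36KO library and WT replicate 4, where muscle markers summed to 83837, 10629 and 15483, and its lowest from Cd36KO replicate 2, where they summed to 498. The match was not complete, since WT replicate 2 had a muscle sum of 15386 with 27.2 for Slc25a12, and the lowest muscle sum, 489, came from Cd36KO replicate 3. The log2 fold change was -1.14 (SE 0.92, DESeq2 adjusted p = 0.601), and 0.51 with the muscle score as a covariate. It was -0.42 without WT replicate 1 (DESeq2 adjusted p = 0.934) and -2.14 without the unnumbered Cd36KO library (0.0546). Its relative Slc25a13 (citrin), with 74.5% identity over 1985 coding bases, had 24 counts in all and no adjusted p.

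Slc25a44, which carries branched-chain amino acids into brown fat mitochondria, had 285, 401, 366 and 543 normalized counts in WT and 462 (unnumbered), 425, 406 and 447 in Cd36KO. WT libraries lay on both sides of the narrow Cd36KO range (log2 fold change 0.13, SE 0.20, DESeq2 adjusted p = 0.83), and the sign turned without WT replicate 1. Slc25a15, an ornithine carrier, Slc25a22, a glutamate carrier, and Slc25a38, the glycine carrier of haem synthesis, averaged 22.0 to 62.9 in either group with adjusted p between 0.622 and 0.978.

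Slc25a20, the carnitine/acylcarnitine carrier through which long-chain fatty acids enter the matrix, had 555, 469, 367 and 598 normalized counts in WT and 666 (unnumbered), 604, 543 and 477 in Cd36KO. The 2 highest values were Cd36KO libraries, yet the groups overlapped (log2 fold change 0.20, SE 0.19, DESeq2 adjusted p = 0.679). The enzymes on either side of it also did not pass. Cpt2, which remakes acyl-CoA in the matrix, measured 618 ± 165 and 746 ± 161 (n = 4 each, SD; adjusted p = 0.598), and 0 of 7 carnitine and citrate shuttle enzymes with an adjusted p passed (0 at an unadjusted p under 0.05 in DESeq2 and in edgeR). The interval of the Slc25a20 change ran from -0.17 to 0.58 on the log2 scale and included 0.

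Of 9 members grouped here as having no settled substrate, 5 had an adjusted p, and Slc25a46 was the 1 that passed. Slc25a48 had the next lowest p, with 83.0, 83.2, 121 and 119.7 normalized counts in WT and 172 (unnumbered), 113, 145 and 199 in Cd36KO (log2 fold change 0.64, SE 0.24, DESeq2 adjusted p = 0.138); it was named after its values were seen. Cd36KO replicate 2 lay below 2 of the WT libraries in it. Slc25a35 measured 135 ± 54.9 in WT and 189 ± 38.2 in Cd36KO (n = 4 each, SD; adjusted p = 0.406), but 31.3% of its exon bases lie on the strand opposite to exons of Rangrf, and the strand setting of the counting was not given.

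In the 5 lists of partner genes, 54 of 58 genes had an adjusted p, and 2 of them passed, both higher (background 1.42%), while edgeR called 0 (9 at an unadjusted p under 0.05) and limma, on all 58, 0 (13 unadjusted). Their median log2 fold change was 0.23, with 37 of the 54 above 0 (49.2% of all genes) and 10 at an unadjusted p under 0.05 in DESeq2 (15.6% of all genes). Mtch1, a carrier-like protein of the outer membrane, had a mean of 1040.4 ± 123 in WT and 1774 ± 366 in Cd36KO (n = 4 each, SD; log2 fold change 0.77, SE 0.18, DESeq2 adjusted p = 0.00289), without overlap. Gpd1, the cytosolic enzyme of the glycerophosphate shuttle, went from 6206 ± 1744 to 10771 ± 3397 with overlap (log2 fold change 0.80, SE 0.24, adjusted p = 0.0386). The Gpd1 call was lost in edgeR (adjusted p = 0.158), with independent filtering off, and in 5 of the 8 fits that left out 1 library, without WT replicates 1, 2 and 3, the unnumbered Cd36KO library and Cd36KO replicate 4. Of the TIM22 import genes, 0 of 9 passed in DESeq2 and 0 in edgeR (2 at an unadjusted p under 0.05 in each), and 8 of the 9 were above 0. Mtch2, the partner of Mtch1, measured 1952 ± 749 and 2817 ± 774 (adjusted p = 0.301).

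The brown adipocyte marker sum, higher in Cd36KO, and the fibroblast and progenitor marker sum, lower in Cd36KO, separated the groups as the called carriers did, and the part of the latter in these calls was not tested. With the mean level of the brown adipocyte markers as a covariate, Slc25a40 had a log2 fold change of 0.23 and Slc25a46 of 0.68, each with an adjusted p of 1 in DESeq2. Brown marker level and genotype cannot be told apart in these libraries. With the muscle score as a covariate Slc25a40 stayed called, and Slc25a46 lost the call at almost the same log2 fold change (0.76, adjusted p = 0.165). With the white score it was the reverse, with Slc25a40 at 1.28 (adjusted p = 0.0938) and Slc25a46 at 1.46 (0.000742).

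**Figure D5:**
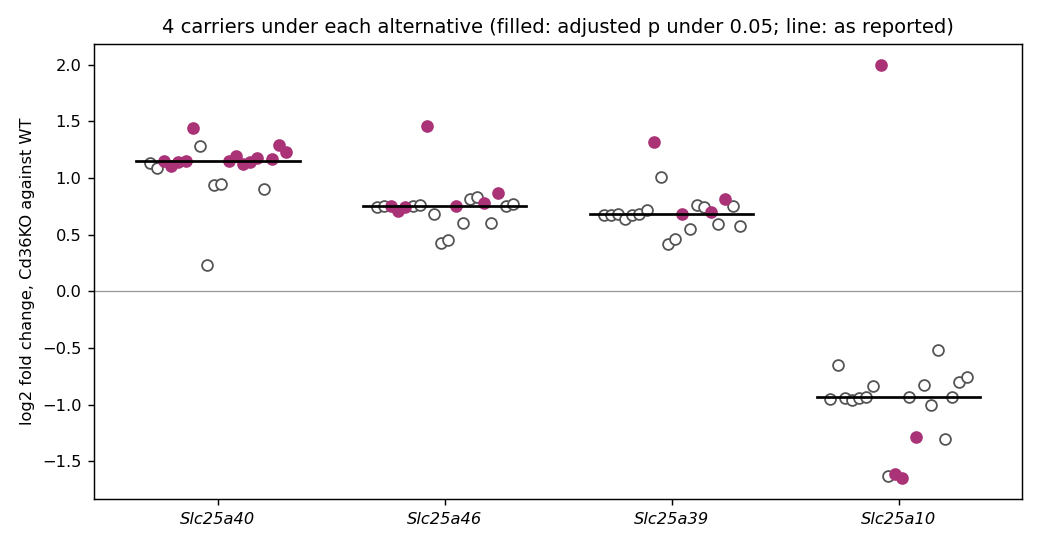
Log2 fold changes of 4 carriers under each alternative setting (circles; filled where the adjusted p was under 0.05) beside the value as reported (line). Slc25a40, Slc25a46 and Slc25a39 stayed above 0 throughout, with an adjusted p under 0.05 in 13, 7 and 4 of 20 alternatives. Slc25a10 turned sign under 1 setting.

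Of the 2 protein-coding genes that start within 100 kb of Slc25a40, 1 had an adjusted p, and of the 2 near Slc25a46 both had, and 0 of these passed. Dbf4, a regulator of DNA replication that starts 0.134 kb from Slc25a40 on the opposite strand, had 9.80 ± 2.64 and 12.3 ± 3.86 (adjusted p = 0.82). Slc25a40 lies on the same chromosome as Cd36, 9327 kb away. Sap130 and B930094E09Rik near Slc25a46 had adjusted p of 0.691 and 0.875.

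All 49 members had a coding sequence, with a median of 318 codons and a range from 265 to 677, and 38 of them lay between 270 and 350 codons. Slc25a40 and Slc25a46 have 337 and 418. The close pairs described here shared between 71.5% (Slc25a4 with Slc25a31) and 79.0% (Slc25a4 with Slc25a5) of their aligned coding bases.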

How the data were processed

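Bulk RNA-seq of brown adipose tissue was used from 4 WT and 4 Cd36KO libraries, grouped by the genotype label. According to the methods, the authors ran bbduk on single-end reads, then STAR for alignment and HTSeq-count for counting, and the submitters' processing notes name Trimmomatic, HISAT2 and DESeq2 with GRCm38 (mm10). The 2 accounts differ, and which made the table could not be settled. The deposited counts are whole numbers per gene, not normalized. A second deposited table holds log2 values of normalized counts plus a pseudocount of 1, used only with limma. The annotation release and strand setting were not given in the sources used here.

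Symbols and exons came from GENCODE M21 (GRCm38), which matched 31011 of 31053 identifiers, and 17367 identifiers had any count. DESeq2 1.42.0 (default size factors and filters, Wald test on genotype alone) in R 4.3.3 was fitted on all genes, with Benjamini-Hochberg adjustment and a threshold of 0.05. It was the main test because the study used it, and its fold changes are unshrunken. The edgeR 4.0.16 quasi-likelihood test and limma 3.58.1 were alternatives, as were TMM factors, other size factors, a filter of 10 counts in 4 libraries, no independent filtering, marker scores as covariates, a replicate block and leaving out each library. Scores are mean log2 CPM (prior count 2) over a marker list, and intervals are normal 95% intervals. Functions were first tested on simulated counts with 200 changed genes. Depth, 2679785 to 4097953 counts a library, limits genes with few counts, and p-values measure the spread between the libraries, which the study calls biological replicates.

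The members, lists and tests were chosen with earlier results of these data known. Members named with values were those called, those with an unadjusted p under 0.05 and groups that did not overlap, a set of carriers of known substrate, and the 3 with the highest level per length. From the pathway lists those called were named. Slc25a15, Slc25a16, Slc25a22, Slc25a23, Slc25a24, Slc25a25, Slc25a26, Slc25a28, Slc25a30, Slc25a32, Slc25a35, Slc25a36, Slc25a37, Slc25a38, Slc25a42, Slc25a48, Glrx5, Gsr, Dpt, Cpt2 and Mtch2 were added after their values were seen. Results of 1 member are not reported here, although it is in the counts over the family. Promoter stretches are from RefSeq (GRCm38.p6). Coding identities came from Biopython 1.88 alignments and shared stretches from BLAST, and figures from matplotlib 3.10.9.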

Additional observations from a re-analysis of the deposited data

Results flagged for a closer look

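In 4 of 38 groups of 4 libraries, covering the named members, 1 library stood apart from the other 3 by Dixon's test. Chance flags about 1 in 20 groups, or 1.9 of 38. Slc25a51 had 2328 normalized counts in WT replicate 4 where the remaining WT libraries had 1338 to 1368, and 2626 in the unnumbered Cd36KO library, against 1908 to 1988 in the other Cd36KO libraries. Slc25a46 had 153 in WT replicate 1, against 241 to 262. Slc25a17 had 167 in the unnumbered Cd36KO library, against 155 to 156. Over the 36 carriers with an adjusted p, the unnumbered Cd36KO library was the highest of all 8 in 11 and WT replicate 1 the lowest in 10. The unnumbered Cd36KO library was also the lowest in 5, and WT replicate 1 the highest in 7.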

How the results depend on the processing

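The number of carriers called, 3 as reported, was 3 with TMM factors, with size factors from genes of at least 50 counts and with a filter of 10 counts in 4 libraries. It was 2 with independent filtering off. With edgeR and with limma it was 0, with the white adipocyte score 7 (6 higher, 1 lower) and with the brown adipocyte score, which was added after the data were seen, 1 (0 higher, 1 lower, Slc25a12 at -5.11). Leaving out 1 library gave 1 to 6 carriers called, 1 to 6 of them higher and 0 to 1 lower: 1 without the unnumbered Cd36KO library, 5 without Cd36KO replicate 2, 6 without WT replicate 4. The median log2 fold change of the carriers, 0.16 as reported, was 0.28 with the white and 0.05 with the brown score. Pathway genes called, 2 as reported, were 0 with edgeR, limma and the brown score, 1 with independent filtering off, 13 with the white score and 1 to 10 when 1 library was left out. The cause was not tested for these shifts.

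Replicate numbers 2, 3 and 4 occur in both groups. The deviations of same-numbered libraries correlated at -0.13, 0.42 and 0.14. These 3 mixed values cannot settle whether same-numbered libraries share more than a number. With the replicate block on these 3 pairs 1 carrier was called higher, 1 lower (Slc25a10, -1.61) and 1 pathway gene, Me1, while Mtch1 lost its call. The same 6 libraries without the block gave 1, 1 and 1, the pathway gene being Mtch1.

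Of 395 alternative values for 20 named carriers, 341 kept direction and side of the threshold, 23 lost the call, 10 gained it and 21 changed sign. Of these 20, 3 were called as reported, so the 23 losses came from them alone and the others had no call to lose. Slc25a1 became -0.54 with the block, -0.43 in the same 6 libraries without it, and ranged from -0.20 to 0.33 with 1 library left out. Slc25a10 became 2.0 with the white score. Slc25a12 became 0.51, Slc25a13 0.39, Slc25a4 0.07 and Slc25a3 0.15 with the muscle score. Slc25a3 became 0.72 with the white score, and ranged from -0.29 to 0.22 with 1 library left out, Slc25a13 from -1.49 to 0.60 and Slc25a44 from -0.01 to 0.31. With the brown score Slc25a11 became -0.19, Slc25a20 -0.53 and Slc25a51 -0.25. Slc25a44 became -0.02 with the block and -0.03 in the same libraries without it. Of 13 members without an adjusted p, 2 had no counts, and with independent filtering off 47 members had an adjusted p.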
